A study of Mus musculus with 16 samples.

Results

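The endocytic adaptors, the ESCRT machinery and the endosomal sorting proteins are the components that a cell uses to take membrane proteins in from its surface and to decide where they go. On the arrays described here they were taken by gene symbol, which does not establish that each has such a role. The members were the subunits of the adaptor complexes AP-1 to AP-4, the clathrin chains *Clta*, *Cltb* and *Cltc*, the epsins, the dynamins *Dnm1*, *Dnm2* and *Dnm3*, the charged multivesicular body proteins (*Chmp* genes), the sorting nexins (*Snx* genes) and the vacuolar protein sorting genes (*Vps* genes, without *Vps52*). These were 93 of the 27962 gene names on the array, with 187 probes of 1 spot each. A single probe stood for 34 of the genes, and 59 genes had more than 1. Over the 4 groups 153 probes of 88 genes were bright enough to be tested. *Ap1g2*, *Ap1m2*, *Ap1s3*, *Vps13b* and *Vps13d* were tested in no comparison. The symbols are those of the array, on which *Vps24* is now *Chmp3* and *Snx26* is now *Arhgap33*, a GTPase-activating protein.

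Clathrin and the AP complexes form coats that gather cargo into vesicles, AP-2 at the plasma membrane, AP-1 and AP-4 at the trans-Golgi network and AP-3 on endosomes. Epsins help to bend the membrane, and dynamins cut the finished vesicle free. Cargo that carries ubiquitin is passed along ESCRT-I, ESCRT-II and ESCRT-III into vesicles inside the endosome and is degraded in the lysosome, and the ATPase VPS4 takes the ESCRT-III filaments apart. Retromer (VPS26, VPS29 and VPS35) with sorting nexins returns other cargo to the Golgi or to the surface, while the HOPS, CORVET, GARP and EARP complexes tether membranes before they fuse. Motor neurons depend on this traffic along very long axons. A mutation of *Vps54* causes motor neuron degeneration in the wobbler mouse, and mutations of human *CHMP2B* occur in frontotemporal dementia and amyotrophic lateral sclerosis (ALS).

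Lumbar spinal cord of male mice was compared between 2 genotypes at 2 ages. The groups were SOD1G93A mice of 40 days, wild-type (non-transgenic) mice of 40 days, SOD1G93A mice of 80 days and wild-type mice of 80 days, with 4 arrays each. Every mouse had the mixed B6SJL background. The SOD1G93A mice carry many copies of a mutant human *SOD1* gene next to their own *Sod1* genes, express it in many cell types, and were taken before symptoms. Each of the 16 arrays held the cord sample in Cy3 and, in Cy5, 1 pooled reference RNA of neonatal heart, kidney and liver from both genotypes of the same background. Values are therefore log2 ratios of cord to reference, a change is the difference of such ratios between groups (SOD1G93A minus wild-type, or 80 minus 40 days), and a log2 change of 1 is a 2-fold difference. The labels call the samples biological replicates. In whole cord, fewer cells of a type and less RNA per cell cannot be told apart.

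Per array, 46.1% to 55.3% of all probes and 74.9% to 85.0% of the member probes were well above background in Cy3, and no member spot was saturated. On 3 arrays (wild-type of 40 days replicate 3, SOD1G93A of 40 days replicate 4 and SOD1G93A of 80 days replicate 4) a few spots had a local background brighter than the spot. Those backgrounds were set to the median of the array, because as scanned they flattened all ratios of these arrays to slopes of 0.811, 0.808 and 0.902 against the other arrays, where the reset gave slopes of 0.952 to 1.03 over all 16. Per the file headers, replicates 1 to 4 of each group lay on slides 1 to 4, each group at its own place on every slide, so place on the slide and group cannot be told apart. Neuronal markers stood 4.46 to 4.78 above the reference on the log2 scale and liver markers at -4.40 to -3.66. Of 5 sensory neuron markers 3 were on the array and none was bright enough to be tested. The probes of mouse *Sod1* differed between genotypes by 0.11 and -0.011 at 40 days and by -0.038 and -0.17 at 80 days, with p of 0.0532 or more from limma (no permutation was run), but the transgene is human and these probes do not check the genotype labels.

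What is measured for a gene here is what its 60-base probes bind, and several of the results below differ from probe to probe of the same gene. The first 30 bases of probes of 3 genes that show this are given 5′ to 3′ as the array files hold them, in lower case and with nothing marked, so that it can be seen that they are separate stretches of sequence. *Snx27* encodes a sorting nexin that works with retromer, *Vps35* the scaffold of retromer and *Vps36* an ESCRT-II subunit that binds ubiquitin.
Snx27 A_52_P672296: tcctagaaagcagtcttcttaaagggacct
Snx27 A_52_P240152: gcagtaccttttttagcttgtgtttttaca
Snx27 A_52_P117566: tgacaatgaccttgctgttacgtacttctt
Vps35 A_51_P503368: taagtctgtctgatcacccaagtagcatga
Vps35 A_52_P595225: attcaagtcttgaaccaacttattcaaaag
Vps35 A_52_P235108: ggagttgtatatgtcaagtcatttcctcaa
Vps36 A_51_P278018: aataaaggaccccagccaggaagagtaaga
Vps36 A_52_P421417: ttggattggttgtaaggtttttgggttgta
The files place them on the NCBI35 (mm7) mouse build, where the *Snx27* probes lie at chr3:94372119-94372178, chr3:94374665-94374724 and, over a stretch longer than the probe itself, chr3:94385058-94393033 (minus strand). Those of *Vps35* lie at chr8:83851607-83851666, chr8:83851955-83852014 and chr8:83877157-83877215 (minus strand). The first *Vps36* probe is placed at chr8:20989761-20990810, also longer than the probe, and the second at chr8:21003160-21003219 (plus strand), 13399 bases further. No 2 probes of a gene shown here overlap, and whether each lies in coding sequence, a UTR or an intron was not analysed here.

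Against the reference organs, many of the members stood high in the cord. Over the 133 member probes well above background in both channels on all 16 arrays, the median log2 ratio was 0.54 and 69.2% were above 0, where all 16908 probes of that kind had a median of 0.10 with 55.1% above 0. The highest was *Dnm3*, a brain dynamin, at 3.32 ± 0.23 (SD, n = 16). It was followed by *Ap3m2* at 2.80 ± 0.17 and *Ap3b2* at 2.75 ± 0.15, both subunits of the neuronal form of AP-3 that makes synaptic vesicles. *Dnm1*, the dynamin of synaptic vesicle endocytosis, stood at 2.56 ± 0.074 and the AP-1 subunit *Ap1s2* (A_51_P113144) at 2.51 ± 0.11. The lowest were *Snx7* at -1.75 ± 0.15, *Snx4* at -1.60 ± 0.090 and -1.31 ± 0.15 on its probes, *Vps54* (A_52_P421657) at -1.37 ± 0.11 and *Vps37b* at -1.10 ± 0.15. By role, the AP-1, HOPS and CORVET, epsin and clathrin groups had medians of 0.93, 0.85, 0.79 and 0.76, and the sorting nexins that pair with retromer (*Snx1*, *Snx2*, *Snx5* and *Snx6*) a median of -0.53. There was no dye swap, so a dye effect on a probe cannot be told apart from its level. The order of single probes whose SD overlap is not resolved.

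**Figure D1:**
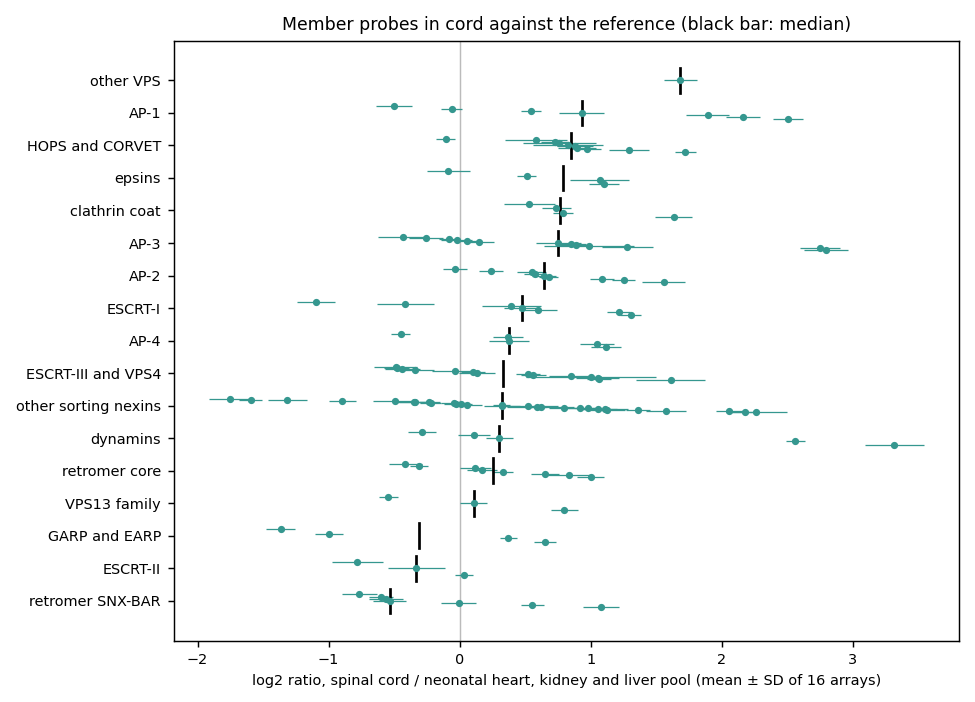
Log2 ratio of spinal cord to the neonatal heart, kidney and liver pool (x axis) for 133 member probes well above background in both channels, by role group (y axis, ordered by median). Points are means over 16 arrays, lines are the SD and black bars the group medians, which run from 1.69 for the single probe of the other *Vps* genes and 0.93 for AP-1 down to -0.53 for the retromer sorting nexins.

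Between genotypes the members differed by little. At 40 days 10 of 153 member probes (6.54%) had p under 0.05 in limma, against 4.47% of all probes tested, with 7 higher (2.44% of all probes) and 3 lower (2.03%) in SOD1G93A. At 80 days it was 17 of 150 (11.3%) against 6.86%, with 12 higher (3.74% of all) and 5 lower (3.12%). The interaction of genotype with age is the change of genotype at 80 days minus that at 40 days. Below, a change, shift or difference between the ages means this interaction, and not a change with age within a genotype. Its p was under 0.05 for 21 of 153 (13.7%) against 6.68%, 12 of them shifted upward (3.11% of all) and 9 downward (3.57%). No member passed at a Benjamini-Hochberg adjusted p under 0.05 in limma in any of the 3, nor did any other probe (0.00%, 0.00% and 0.00%), and the smallest adjusted p among members was 0.998, 0.654 and 0.543. The median change over the members was -0.0086 at 40 days and 0.022 at 80 days, where all probes had medians of 0.0029 and -0.0012. The calls are therefore single probes at an unadjusted threshold, as in the methods of the study. They also hang on the reset of the bright backgrounds. With backgrounds as scanned 0 of the 10 calls at 40 days, 10 of the 17 at 80 days and 4 of the 21 in the interaction remained. All member calls as scanned were 0 of 153, 13 of 150 and 4 of 153, against 1.15%, 5.63% and 3.63% of all probes. The member share was then not above that of all probes at 40 days or in the interaction. With the 3 arrays concerned left out 4 of 10, 11 of 17 and 13 of 20 of the calls remained. Without each single array in turn the counts ran from 4 (without SOD1G93A of 40 days replicate 2) to 13 at 40 days, from 7 (without SOD1G93A of 80 days replicate 3) to 17 at 80 days and from 13 (without SOD1G93A of 40 days replicate 3) to 21 in the interaction. The calls that held each time were 4 of 10 at 40 days (*Ap3d1*, *Epn1*, *Snx27* and *Vps37a*), 3 of 17 at 80 days (*Ap2a1*, *Vps36* and *Vps39*) and 8 of 21 in the interaction (*Ap1s2*, *Epn1*, *Snx15*, *Snx27*, *Vps13c*, *Vps36*, *Vps39* and *Vps4b*).

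**Figure D2:**
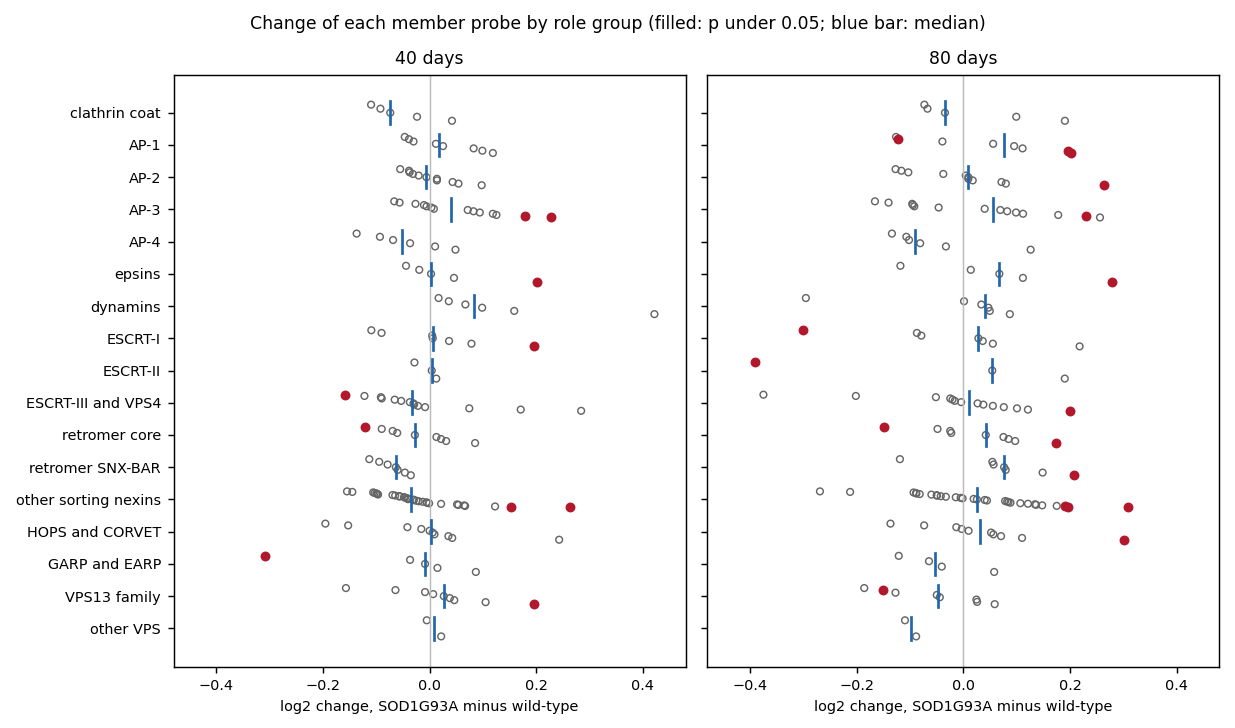
Log2 change of each tested member probe, SOD1G93A minus wild-type (x axis), at 40 days (left) and 80 days (right) by role group (y axis). Filled points have p under 0.05 in limma, open points do not, and blue bars are group medians. The 10 filled points at 40 days and the 17 at 80 days are spread over the groups, and the medians at 40 days lie between -0.074 (clathrin) and 0.083 (dynamins).

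In the main fits the clathrin coat itself showed no call at either age. Clathrin heavy chain (*Cltc*, A_51_P311525) stood at 0.74 ± 0.15 in wild-type and 0.67 ± 0.030 in SOD1G93A at 40 days (mean ± SD, n = 4), and differed by -0.074 at 40 and -0.067 at 80 days. The light chain *Clta*, the brightest clathrin probe at a mean Cy3 signal of 3313 units, differed by -0.024 and 0.099. The other light chain, *Cltb*, was 1.63, 1.54, 1.52 and 1.81 on the wild-type arrays of 40 days and 1.56, 1.47, 1.52 and 1.59 on the SOD1G93A arrays of that age. At 80 days it measured 1.73, 1.56, 1.46 and 1.62 in wild-type and 1.70, 1.67, 1.98 and 1.78 in SOD1G93A, so that all 4 transgenic arrays stood above 3 of the 4 wild-type ones and overlapped the fourth. Its change was -0.092 at 40 days and 0.19 ± 0.086 (SE) at 80 days (p = 0.0501, exact permutation p = 0.0857), and the change between the ages was 0.28 ± 0.11 (SE) (p = 0.0227, exact permutation p = 0.02, the genotype labels being moved within each age). Of the 5 clathrin probes tested, 1 was called in the interaction and 0 at either age.

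Of AP-2, the adaptor of endocytosis at the plasma membrane, 1 of 11 probes was called at 80 days and 0 at 40 days. That probe was the only one of the subunit *Ap2a1*, which measured 1.72, 1.40, 1.34 and 1.64 on the wild-type arrays of 40 days and 1.30, 1.56, 1.57 and 1.52 on the SOD1G93A arrays of that age. At 80 days the values were 1.61, 1.57, 1.32 and 1.42 in wild-type and 1.66, 1.80, 1.82 and 1.68 in SOD1G93A. All 4 transgenic arrays of 80 days lay above all 4 wild-type ones, which was not so at 40 days. *Ap2a1* rose by 0.26 ± 0.079 (SE) at 80 days (p = 0.00733, exact permutation p = 0.0286), and its change between the ages was 0.30 ± 0.13 (SE) (p = 0.0334, exact permutation p = 0.0637). With the slide as a block that last p was 0.0504. The other AP-2 probes, of *Ap2a2*, *Ap2b1*, *Ap2m1* and *Ap2s1*, had no call, and the 11 had medians of -0.0060 and 0.0091.

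AP-1 carries cargo between the trans-Golgi network and endosomes. None of its 8 tested probes was called at 40 days, and at 80 days 2 were higher and 1 lower. Its small subunit *Ap1s1*, at 3866 units of Cy3 among the brightest members, measured 0.86, 0.72, 0.80 and 0.92 on the wild-type arrays of 40 days and 0.70, 0.80, 0.83 and 0.82 on the SOD1G93A arrays of that age. The arrays of 80 days gave 0.92, 0.99, 1.07 and 0.86 in wild-type and 1.02, 1.15, 1.34 and 1.11 in SOD1G93A. A transgenic array (replicate 3) was the highest of all 16, and the 2 groups of 80 days overlapped. *Ap1s1* rose by 0.20 ± 0.080 (SE) at 80 days (p = 0.0334, exact permutation p = 0.0571), with a change between the ages of 0.24 ± 0.099 (SE) (p = 0.0307, exact permutation p = 0.0318). The large subunit *Ap1b1* rose by 0.20 ± 0.083 (SE) (p = 0.0354, exact permutation p = 0.0857), from 2.10 ± 0.12 to 2.30 ± 0.12 (mean ± SD, n = 4).

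The paralog *Ap1s2*, whose human counterpart is mutated in an X-linked intellectual disability, went the other way on 1 of its 3 probes (A_51_P435321, at only 83.3 units). That probe measured -0.45, -0.39, -0.52 and -0.46 on the wild-type arrays of 40 days and -0.42, -0.23, -0.40 and -0.29 on the SOD1G93A arrays of that age. For 80 days the values were -0.54, -0.60, -0.54 and -0.52 in wild-type and -0.65, -0.66, -0.71 and -0.67 in SOD1G93A. Transgenic arrays held the highest values at 40 days, with an overlap, and at 80 days all 4 lay below every wild-type array. It fell by 0.12 ± 0.053 (SE) at 80 days (p = 0.0414, exact permutation p = 0.0286, and 0.0768 with the slide as a block), after 0.12 at 40 days. The change between the ages was -0.24 ± 0.073 (SE) (p = 0.00434, exact permutation p = 0.00122). The brighter *Ap1s2* probes A_51_P113144 and A_52_P488596 had the same sign with -0.096 and -0.065, neither of them called.

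AP-3 sorts proteins from endosomes to lysosomes and, in its neuronal form, into synaptic vesicles. At 40 days 2 of its 14 tested probes rose. *Ap3d1*, the delta subunit that all AP-3 needs, measured 0.70, 0.60, 0.76 and 0.56 on the wild-type arrays of 40 days and 0.93, 0.87, 0.90 and 0.83 on the SOD1G93A arrays of that age on probe A_52_P662238. At 80 days the same probe gave 0.78, 1.09, 0.41 and 0.87 in wild-type and 0.75, 0.84, 0.54 and 0.63 in SOD1G93A. The groups were fully apart at 40 days and mixed at 80 days, where the wild-type arrays ran from 0.41 to 1.09. *Ap3d1* rose by 0.23 ± 0.059 (SE) at 40 days (p = 0.0032, exact permutation p = 0.0286), and its change between the ages was -0.32 ± 0.15 (SE) (p = 0.0486, exact permutation p = 0.0673). Its brighter probe A_51_P413710 (509 against 102 units) changed by -0.0058 at 40 days, and by 0.26 between the ages, with the opposite sign.

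The neuronal subunit *Ap3m2* rose by 0.18 ± 0.075 (SE) at 40 days on its dimmer probe (p = 0.038, exact permutation p = 0.0571), and on the brighter one stood at 0.12 at 40 and -0.17 at 80 days, with a change between the ages of -0.28 ± 0.13 (SE) (p = 0.0431, exact permutation p = 0.0339). Without SOD1G93A of 80 days replicate 4, its lowest array of that group at 2.47, that last value was -0.18. *Ap3m1*, the ubiquitous form of the same subunit, changed by -0.19 ± 0.085 (SE) between the ages (p = 0.0439, exact permutation p = 0.0224, and 0.0626 with the slide as a block) on 1 of 4 probes, while the other 3 had 0.11, 0.11 and 0.080. The sigma subunit *Ap3s2* rose at 80 days by 0.23 ± 0.10 (SE) (p = 0.0485, exact permutation p = 0.114, and 0.0536 with the slide as a block). The 6 tested probes of AP-4, a further Golgi adaptor, held no call in any of the 3 comparisons.

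Epsins link ubiquitin-tagged cargo to the clathrin coat. *Epn1* measured 0.37, 0.25, 0.36 and 0.27 on the wild-type arrays of 40 days and 0.61, 0.59, 0.40 and 0.45 on the SOD1G93A arrays of that age on probe A_52_P323074. The values of 80 days were 0.35, 0.48, 0.24 and 0.51 in wild-type and 0.33, 0.24, 0.40 and 0.13 in SOD1G93A. All transgenic arrays of 40 days were higher than all wild-type ones, and at 80 days the wild-type group was the higher with an overlap. *Epn1* rose by 0.20 ± 0.064 (SE) at 40 days (p = 0.0101, exact permutation p = 0.0286), and changed by -0.32 ± 0.11 (SE) between the ages (p = 0.0077, exact permutation p = 0.0114). That probe is dim, with a mean Cy3 signal of 57.9 units and 14 of 16 arrays well above background, and the brighter *Epn1* probe (A_51_P459647, 398 units) differed by -0.019 at 40 days and 0.033 between the ages. *Epn2* rose at 80 days by 0.28 ± 0.12 (SE) (p = 0.0435, exact permutation p = 0.114), and its other probe gave 0.11.

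Among the dynamins none of the 6 probes was called at either age. *Dnm1* was at 2.53 ± 0.12 and 2.60 ± 0.049 (mean ± SD, n = 4) in wild-type and SOD1G93A cord of 40 days, and changed by 0.067 and 0.034, which is within the spread between arrays. *Dnm3*, which acts at postsynaptic spines, was 3.29, 3.15, 3.18 and 3.38 on the wild-type arrays of 40 days and 3.26, 3.33, 3.43 and 3.60 on the SOD1G93A arrays of that age. Its 80-day values were 3.52, 3.40, 3.14 and 3.76 in wild-type and 3.44, 3.00, 2.85 and 3.35 in SOD1G93A. The change between the ages was -0.45 ± 0.19 (SE) (p = 0.0289, exact permutation p = 0.0473), with 0.16 at 40 and -0.30 at 80 days. Its other probe, A_52_P164286, had -0.37 with p = 0.375 (exact permutation p = 0.657).

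In the ESCRT machinery the clearest difference between the ages was in *Vps4b*, 1 of the 2 VPS4 ATPases, with 2 probes tested. On probe A_52_P25878 it measured -0.39, -0.33, -0.35 and -0.20 on the wild-type arrays of 40 days and -0.41, -0.55, -0.44 and -0.51 on the SOD1G93A arrays of that age. At 80 days the values were -0.80, -0.53, -0.55 and -0.43 in wild-type and -0.39, -0.29, -0.44 and -0.40 in SOD1G93A. The transgenic arrays were all below the wild-type ones at 40 days, and at 80 days 3 of them lay above every wild-type array and the other (-0.44) just below the highest (-0.43). *Vps4b* fell by 0.16 ± 0.060 (SE) at 40 days (p = 0.0254, exact permutation p = 0.0286) and rose by 0.20 ± 0.082 (SE) at 80 days (p = 0.0343, exact permutation p = 0.0571). With the slide as a block the p at 40 days was 0.0518. The change between the ages was 0.36 ± 0.10 (SE) (p = 0.00266, exact permutation p = 0.000816), the smallest p of any member in that comparison, and remained under 0.05 without each of the 16 arrays in turn. The brighter probe A_51_P195100 (539.7 against 121 units) had -0.037, 0.027 and 0.064 in these 3 comparisons and was called in none.

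*Vps36* measured -0.38, -0.54, -0.090 and -0.12 on the wild-type arrays of 40 days and -0.16, -0.19, -0.43 and -0.31 on the SOD1G93A arrays of that age on its brighter probe. Its values at 80 days were -0.24, -0.15, -0.36 and 0.0022 in wild-type and -0.57, -0.38, -0.81 and -0.55 in SOD1G93A. The genotypes were mixed at 40 days and fully apart at 80 days. *Vps36* fell by 0.39 ± 0.10 (SE) at 80 days (p = 0.00335, exact permutation p = 0.0286), the largest change of any called member at that age, and its change between the ages was -0.40 ± 0.16 (SE) (p = 0.0197, exact permutation p = 0.0567). Its dimmer probe A_52_P421417 had the opposite sign at 80 days with 0.19 (p = 0.0707, exact permutation p = 0.114).

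The ESCRT-I subunit *Vps37a* rose by 0.19 ± 0.066 (SE) at 40 days on 1 probe (p = 0.0151, exact permutation p = 0.0571) and fell by 0.30 ± 0.13 (SE) at 80 days on the other (p = 0.0384, exact permutation p = 0.0857). Each probe had the other sign, uncalled, where its partner was called, at -0.11 for the latter at 40 days and 0.055 for the former at 80 days. *Chmp7*, an ESCRT-III-like protein of the nuclear envelope, changed by 0.17 ± 0.079 (SE) between the ages (p = 0.04998, exact permutation p = 0.0233, and 0.0602 with the slide as a block). *Chmp2b* differed by -0.066 at 40 days and 0.055 at 80 days, with all 4 groups overlapping. Of the 14 tested probes of ESCRT-III and VPS4, *Vps4b* alone was called at 40 or at 80 days.

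Retromer was called on single probes that differed within a gene. *Vps35*, whose human form is mutated in a familial Parkinson disease, has 3 tested probes (sequences above). The brightest, A_51_P503368 at 1469.9 units, differed by -0.090 at 40 and -0.023 at 80 days. The middle probe, A_52_P595225, measured 0.26, 0.19, 0.29 and 0.17 in wild-type and 0.14, 0.055, 0.12 and 0.10 in SOD1G93A at 40 days, with every transgenic array the lower. It fell by 0.12 ± 0.052 (SE) (p = 0.0408, exact permutation p = 0.0286, and 0.059 with the slide as a block) and stood at 0.075 at 80 days. The dimmest, A_52_P235108, measured -0.31, -0.49, -0.49 and -0.43 in wild-type and -0.29, -0.27, -0.26 and -0.20 in SOD1G93A at 80 days, with every transgenic array the higher. It rose by 0.17 ± 0.062 (SE) (p = 0.019, exact permutation p = 0.0286). *Vps29*, the retromer subunit with a phosphatase fold, fell by 0.15 ± 0.065 (SE) at 80 days on its brightest probe (p = 0.0441, exact permutation p = 0.0571, and 0.0605 with the slide as a block), and its other tested probes gave -0.049 and 0.042.

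*Snx1*, *Snx2*, *Snx5* and *Snx6* encode the membrane-bending coat that works beside retromer. All 7 of their tested probes were lower at 40 days, by -0.11 to -0.035, and none was called. At 80 days *Snx2* rose by 0.21 ± 0.092 (SE) on its dimmer probe (p = 0.0462, exact permutation p = 0.0571), while the brighter one (A_51_P347177) gave -0.12. The value of *Snx2* without wild-type of 80 days replicate 1, its lowest array at -0.92, was 0.12. In the interaction *Snx2* shifted by 0.25 ± 0.11 (SE) (p = 0.0318, exact permutation p = 0.0192). *Snx5* shifted by 0.26 ± 0.12 (SE) (p = 0.0442, exact permutation p = 0.0412, and 0.0752 with the slide as a block), with 1 wild-type array of 80 days not measured. Without wild-type of 80 days replicate 1 these were 0.17 and 0.15.

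*Snx27* links retromer to receptors that carry a PDZ-binding tail, among them glutamate receptors, and had 5 tested probes. Probe A_52_P240152 measured 2.16, 2.15, 2.40 and 2.25 on the wild-type arrays of 40 days and 2.53, 2.61, 2.45 and 2.43 on the SOD1G93A arrays of that age. At 80 days it measured 2.06, 2.63, 1.99 and 2.50 in wild-type and 2.02, 1.98, 2.06 and 2.04 in SOD1G93A. At 40 days every transgenic array was above every wild-type array, and at 80 days the transgenic arrays lay level with the lower pair of a widely spread wild-type group. It rose by 0.26 ± 0.072 (SE) at 40 days (p = 0.00425, exact permutation p = 0.0286) and gave -0.27 at 80 days (p = 0.0702, exact permutation p = 0.229). Its change between the ages was -0.53 ± 0.16 (SE) (p = 0.00434 in limma, exact permutation p = 0.00653), and the limma p stayed under 0.05 without each array in turn. Probe A_52_P117566 rose by 0.15 ± 0.063 (SE) at 40 days (p = 0.037, exact permutation p = 0.0571) and had -0.17 between the ages.

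The brightest *Snx27* probe, A_52_P672296 at 425 units, differed by -0.040 and -0.0016 at the 2 ages, A_52_P117569 by 0.065 and 0.085. The dimmest, A_52_P19329, with 52 units and 9 of 16 arrays well above background, 3 of them in SOD1G93A of 40 days and 2 in each other group, changed by 0.18 ± 0.079 (SE) between the ages (p = 0.0418, exact permutation p = 0.0216), the opposite of probe A_52_P240152, and turned sign with the Feature Extraction processed signals (-0.23) and with median centring (-0.017). *Snx27* was the only gene whose calls in the interaction went both ways.

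**Figure D3:**
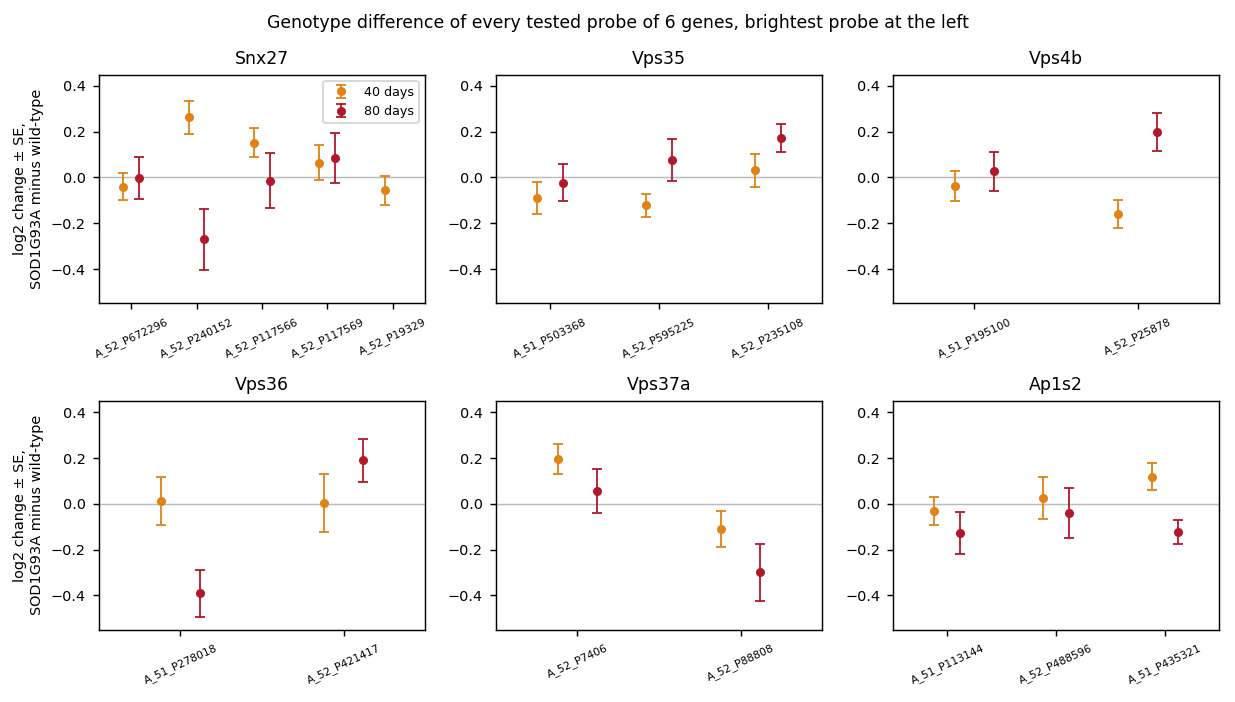
Log2 change ± SE, SOD1G93A minus wild-type (y axis), at 40 days (orange) and 80 days (red) for every tested probe of *Snx27*, *Vps35*, *Vps4b*, *Vps36*, *Vps37a* and *Ap1s2* (x axis, brightest probe at the left of each panel). The called *Vps4b* probe moves from -0.16 to 0.20 while its brighter neighbour stays at -0.037 and 0.027, and the *Vps36* probes stand at -0.39 and 0.19 at 80 days.

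Among the other sorting nexins, *Snx15*, which binds endosomal lipid, measured 1.12, 0.98, 1.01 and 1.13 on the wild-type arrays of 40 days and 0.87, 1.02, 1.03 and 1.03 on the SOD1G93A arrays of that age. At 80 days it measured 0.81, 0.73, 0.60 and 0.73 in wild-type and 0.98, 0.80, 0.89 and 0.97 in SOD1G93A. The wild-type arrays of 80 days were the lowest of all 4 groups, with 1 transgenic array (0.80) inside their range. *Snx15* rose by 0.19 ± 0.068 (SE) at 80 days (p = 0.0184, exact permutation p = 0.0571), and its change between the ages was 0.26 ± 0.088 (SE) (p = 0.00935, exact permutation p = 0.00898). *Snx11* rose by 0.31 ± 0.12 (SE) (p = 0.0264, exact permutation p = 0.114) and *Snx3*, which recruits retromer for the Wntless receptor, by 0.20 ± 0.081 (SE) at 80 days (p = 0.0352, exact permutation p = 0.0857). The changes between the ages of *Snx19*, at 0.20 ± 0.089 (SE) (p = 0.0383, exact permutation p = 0.031), and *Snx12*, at 0.19 ± 0.091 (SE) (p = 0.0488, exact permutation p = 0.0453), were called without the slide as a block and not with it (p = 0.0503 and 0.0516 in limma, with no permutation). Of the 32 tested probes of these sorting nexins, 2 rose at 40 days, both of *Snx27*, and 3 of 31 rose at 80 days, with none lower at either age.

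Of the tethering complexes, HOPS and CORVET held 1 call. *Vps39*, a HOPS subunit that brings late endosomes to the lysosome, measured 0.66, 0.28, 0.44 and 1.03 on the wild-type arrays of 40 days and 0.28, 0.40, 0.38 and 0.56 on the SOD1G93A arrays of that age on probe A_52_P274184. Arrays of 80 days measured 0.53, 0.38, 0.57 and 0.59 in wild-type and 0.75, 0.83, 1.07 and 0.62 in SOD1G93A. Its 4 transgenic arrays of 80 days were all higher than the wild-type arrays of that age. It rose by 0.30 ± 0.095 (SE) at 80 days (p = 0.01, exact permutation p = 0.0286), after -0.20 at 40 days, and its change between the ages was 0.50 ± 0.18 (SE) (p = 0.0148, exact permutation p = 0.0212), the largest upward one among called members. The brighter *Vps39* probe, A_51_P460828, had 0.0097 at 80 days and 0.16 between the ages.

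*Vps54*, the gene of the wobbler mouse and a subunit of the GARP complex, was at -0.98 ± 0.16 and -0.99 ± 0.089 (mean ± SD, n = 4) at 40 days on its brightest probe, and changed by -0.0086 and -0.12 at the 2 ages. Its probe A_52_P540447 fell by 0.31 ± 0.14 (SE) at 40 days (p = 0.0498, exact permutation p = 0.143), but was well above background on 5 of 16 arrays, 3 of them wild-type and none SOD1G93A at 40 days. It thus entered the test only through the group where it was higher, and it is 1 of the 10 calls and 3 lower calls of that age. The call rested on wild-type arrays of 0.29 and 0.41 beside others of -0.22 and -0.22, with the groups overlapping. The VPS13 protein *Vps13c*, a lipid transporter between organelles, rose by 0.19 ± 0.080 (SE) at 40 days on 1 of 5 tested probes (p = 0.0343, exact permutation p = 0.0857), with a change between the ages of -0.38 ± 0.14 (SE) (p = 0.0128, exact permutation p = 0.0163). Another of its probes, A_52_P649074, fell by 0.15 ± 0.061 (SE) at 80 days (p = 0.033, exact permutation p = 0.0286, and 0.0571 with the slide as a block). Both have a mean Cy3 signal of 58.0 and 58.4 units, close to the dimmest probes tested. The first, A_51_P212700, was not well above background on all arrays of 40 days. *Vps45* and *Vps72*, which belong to no complex named here, had no call.

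Of 150 member probes tested at both ages 81 (54.0%) had opposite signs at 40 and 80 days, against 50.5% of all probes. Of those called in the interaction all 20 had, as had 96.3% of all probes called in it, since the call itself favours opposite signs. Lower at 40 and higher at 80 days were 11 (*Vps4b*, *Vps39*, *Snx15*, *Cltb*, *Ap1s1*, *Ap2a1*, *Snx2*, *Snx5*, *Snx12*, *Snx19* and *Chmp7*), and 9 went the other way (*Snx27*, *Ap1s2*, *Epn1*, *Vps13c*, *Vps36*, *Dnm3*, *Ap3d1*, *Ap3m1* and *Ap3m2*). Where a gene had several tested probes, the called probe was the brightest one in 1 of 10 calls at 40 days, 3 of 11 at 80 days, 3 of 16 in the interaction, 5 of 14 with age in wild-type and 12 of 25 with age in SOD1G93A, where 46 of the 111 tested probes of such genes (108 at 80 days) were the brightest. With age in SOD1G93A 26.1% of the brightest probes and 20% of the others were called. All tested probes had the same sign in 25, 24 and 25 of the 46 such genes in the 3 comparisons of genotype, and in 3 of 9, 4 of 11 and 7 of 15 of the genes with a call.

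**Figure D4:**
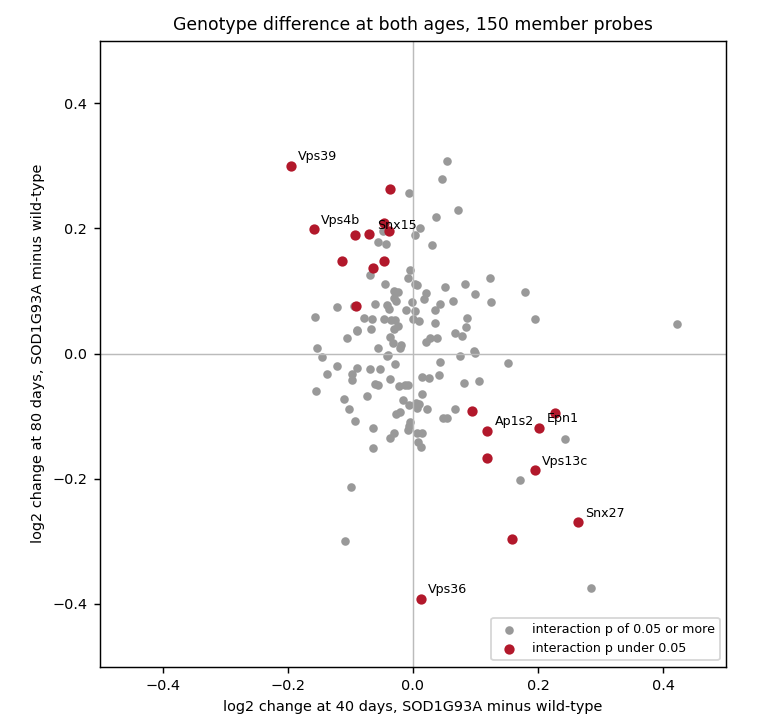
Log2 change at 80 days (y axis) against that at 40 days (x axis), SOD1G93A minus wild-type, for 150 member probes. Red points have an interaction p under 0.05 in limma. All 20 red points lie in the upper left or lower right.

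**Figure D5:**
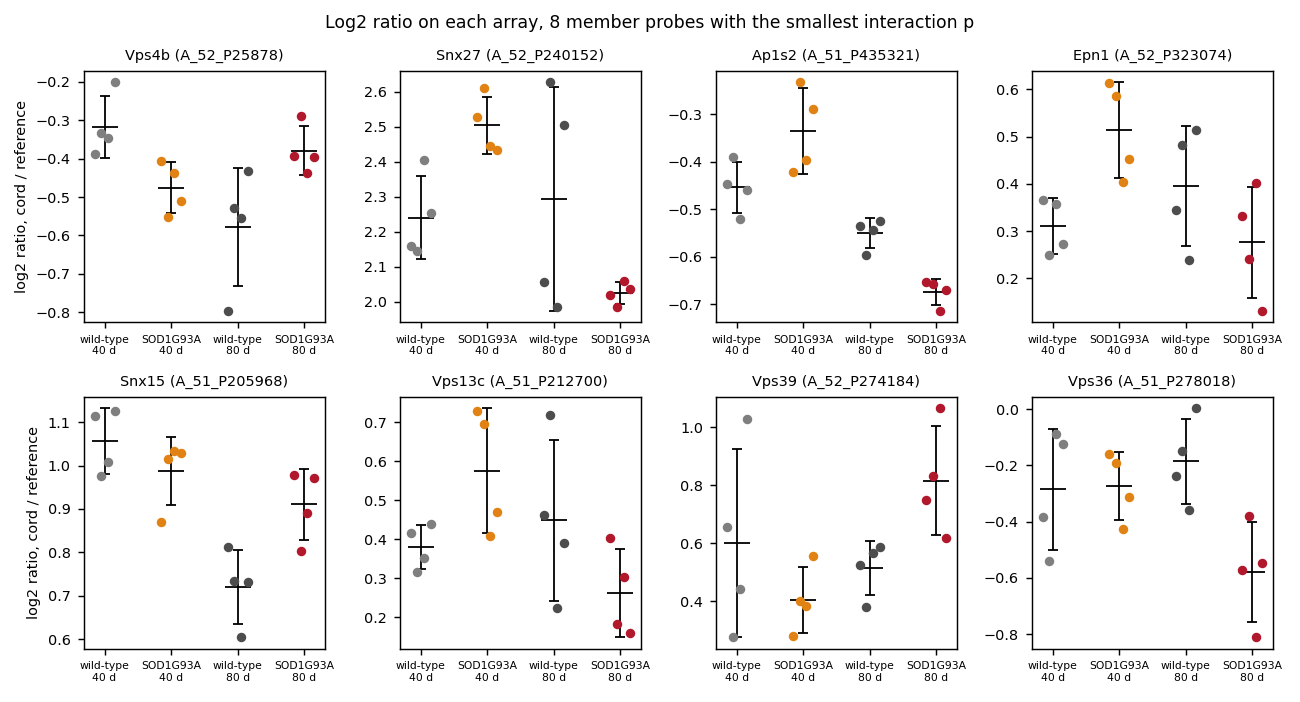
Log2 ratio of cord to reference on each array (y axis) in the 4 groups (x axis) for the 8 member probes with the smallest interaction p. Points are arrays and bars the mean ± SD of 4. The *Vps4b* arrays of SOD1G93A lie below wild-type at 40 days and the group mean above it at 80 days, and the *Snx27* and *Epn1* arrays do the reverse.

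In the main fits more member probes were called with age than with genotype, as were more of all probes. Of all probes 4.47% and 6.86% were called with genotype at 40 and 80 days. Age was tested on all arrays, and genotype only on the arrays of an age. With all arrays in the estimate of spread, genotype at 80 days gave more member calls than age in wild-type. With the arrays of wild-type alone, age in wild-type gave fewer than the main fit of genotype at 80 days. In wild-type cord 23 of 153 probes had p under 0.05 between 80 and 40 days, close to the 15.1% of all probes, with 5 higher (6.78% of all) and 18 lower (8.29%). In SOD1G93A cord it was 41 of 153 (26.8%) against 16.9%, with 24 higher (8.64% of all) and 17 lower (8.28%). At an adjusted p under 0.05 there were 2 members in each genotype, against 1.58% and 1.12% of all probes. In wild-type these were *Chmp1b*, an ESCRT-III subunit, and *Snx15*. *Chmp1b* measured -0.20, -0.19, -0.063 and -0.24 at 40 days and -0.55, -0.47, -0.53 and -0.37 at 80 days, all lower at the older age, and fell by 0.31 ± 0.055 (SE) (adjusted p = 0.00802 in limma). It also fell in SOD1G93A cord, by 0.18 (p = 0.00465, exact permutation p = 0.0286). *Snx15*, whose arrays are given above, fell by 0.34 ± 0.062 (SE) in wild-type (adjusted p = 0.0107) and had -0.076 in SOD1G93A.

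The next smallest p in wild-type cord belonged to *Ap3m1* (A_51_P363791), *Vps37b*, *Epn2* and *Vps4b*, which fell by 0.25, 0.28, 0.39 and 0.26 with all arrays of 80 days lower than all of 40 days (exact permutation p = 0.0286 for each). In SOD1G93A cord the 2 members past the adjusted threshold were both AP-1 small subunits. *Ap1s2* (A_51_P435321) fell by 0.34 ± 0.052 (SE) (adjusted p = 0.00313), and *Ap1s1* rose by 0.37 ± 0.070 (SE) (adjusted p = 0.0143). *Snx27* (A_52_P240152) fell by 0.48 and *Ap3m1* (A_52_P544410) by 0.24, while *Snx1* rose by 0.27, each with the ages fully apart. *Snx22* rose by 0.38 with an overlap (p = 0.00213, exact permutation p = 0.0571). *Chmp1b*, *Ap3m1* (A_51_P363791) and *Snx22* were called in both genotypes, with the same sign. In SOD1G93A 4 of 10 HOPS and CORVET probes were higher with age and 1 lower, and in wild-type 5 of 32 of the other sorting nexins were lower and 1 higher. With backgrounds as scanned the SOD1G93A count was 24 in place of 41, where 11.4% of all probes were called in place of 16.9%. The 2 age comparisons and the genotype comparisons share arrays and are not independent of each other.

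Partners of the members were counted from lists of 67 other genes of the same pathways (clathrin accessory proteins, ESCRT partners, endosomal Rab proteins, retromer partners and cargo receptors). At 40 days 2 of their 115 tested probes were higher and 4 lower, at 80 days 6 of 114 higher and 2 lower, and in the interaction 6 of 116 shifted up and 4 down, none at an adjusted p under 0.05. These were 5.22%, 7.02% and 8.62% of the partner probes, near the 4.47%, 6.86% and 6.68% of all probes. The genes named next are therefore descriptions of single probes. They are only some of the called partners, and changes larger than theirs are among those not named. *Tsg101*, the ESCRT-I subunit that receives cargo, fell by 0.34 at 40 days on 1 probe (A_52_P401824) and rose by 0.21 at 80 days on another, where its other 2 tested probes gave -0.062 and -0.038 at 40 days and -0.17 and 0.066 at 80 days. *Hspa8*, the chaperone that strips clathrin from vesicles, rose by 0.37 at 80 days on 1 probe, and its other tested probe gave 0.022. Among the cargo and sorting receptors, 1 probe of *Sort1* shifted upward in the interaction by 0.24, and its other 3 gave 0.17 to 0.24, uncalled. For the mannose-6-phosphate receptor *M6pr* 2 probes shifted upward by 0.25 and 0.18, and the other gave 0.079. Of the early endosome, the only tested probe of *Rab5b* shifted by -0.30. *Rab22a* shifted by -0.24 on 1 probe, with -0.011 and -0.0019 on the others, and *Eea1* by -0.18 on 1, with -0.065 and -0.023 on the others. With age, 5 of 116 probes were higher and 13 lower in wild-type and 6 higher and 14 lower in SOD1G93A, 2 and 1 of them at an adjusted p under 0.05. The shares, 15.5% and 17.2%, lie close to the 15.1% and 16.9% of all probes.

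Some cell type markers moved along the same comparisons. Of all probes 2.44% were higher and 2.03% lower at 40 days, and 3.74% and 3.12% at 80 days. In the interaction 3.11% shifted upward and 3.57% downward. With age 6.78% were higher and 8.29% lower in wild-type, and 8.64% and 8.28% in SOD1G93A. At 40 days 5 of 15 astrocyte probes (of *Gfap*, *Slc1a2*, *Slc1a3*, *S100b* and *Aldoc*) were higher in SOD1G93A, by 0.19 to 0.25, and in the interaction 5 shifted downward. The mean log2 ratio of the astrocyte list ran from 3.51 to 3.75 on the wild-type arrays and 3.69 to 3.89 on the SOD1G93A arrays of 40 days, and from 3.61 to 3.85 and 3.57 to 3.87 at 80 days. Oligodendrocyte probes were higher in 4 of 16 cases at 40 days and 3 of 16 at 80 days, and with age 6 of 16 fell in wild-type, and 9 of 16 fell and 1 rose in SOD1G93A. Their list ran from 3.95 to 4.34 over the arrays of 40 days and 3.74 to 4.00 over those of 80 days. Of the neuronal list 1 of 18 probes was higher at 40 days, 1 lower at 80 days and 3 shifted downward between the ages, and of 5 motor neuron probes 0, 0 and 1 upward. Microglial probes were called in 1, 0 and 0 of 14 cases, with age 1 rose in wild-type and 3 (of *Csf1r*, *C1qb* and *Trem2*) in SOD1G93A, and their list ran from 0.55 to 0.71 over the arrays of 40 days, 0.64 to 1.22 in wild-type of 80 days and 0.57 to 1.59 in SOD1G93A of 80 days (medians 0.70 and 0.77), so that single arrays of 80 days stood high. Schwann cell markers varied widely within a group, from -0.66 to 2.07 over the wild-type arrays of 40 days, and skeletal muscle markers from -2.01 to 0.99 over SOD1G93A arrays of that age. The part of these shifts in the results for the members was not tested.

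The promoters of the members were searched for 3 short motifs in the 300-base windows that begin 250 bases before each start site (RefSeq, GRCm38.p6), on both strands, of which 79 windows of 69 members could be used. CACGTG, the core of the E-box that transcription factors of lysosome and endosome genes such as TFEB recognise, was in 12.7% of the member windows and 7.15% of all 32851. GGGCGG, the core of the GC box, was in 67.1% against 35.7%, and CCAAT in 30.4% against 37.4%. The motif CACGTG was in the windows of *Ap1s2*, *Ap2m1*, *Epn1*, *Snx5*, *Snx8*, *Vps16*, *Vps26a* and *Vps33a*. The stretches around it in the 3 of these genes with a probe called in the interaction are shown, with the motif in capitals, which starts 115, 26 and 50 bases before the start site.
Ap1s2 promoter: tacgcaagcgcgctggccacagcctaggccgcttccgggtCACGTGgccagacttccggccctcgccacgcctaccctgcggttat
Epn1 promoter: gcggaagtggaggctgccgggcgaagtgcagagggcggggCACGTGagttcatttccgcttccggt
Snx5 promoter: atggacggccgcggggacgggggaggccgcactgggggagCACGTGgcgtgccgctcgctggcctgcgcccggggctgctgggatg
They lie at chrX:163908862-163908947 (plus strand), chr7:5080169-5080234 (plus strand) and chr2:144270577-144270662 (minus strand). The called probes of these genes did not share a direction: *Ap1s2* and *Epn1* shifted downward between the ages and *Snx5* upward. A match in these letters is a description of the window and not a binding site.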

How the data were processed

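Lumbar cord RNA of 16 mice (4 arrays a group) was amplified linearly, labelled with Cy3 and hybridised with the Cy5 reference pool to 2-colour Agilent whole mouse genome arrays. The deposited scanner files, which the authors made with Agilent Feature Extraction (version 9.5.3.1 per the labels), hold the spot intensity and local background of each channel. The authors' value table holds normalized log2 values of the cord channel alone, without the reference: across 41174 probes each of its columns correlated at 0.992 to 0.999 with the log2 Cy3 signal of that array and at 0.322 to 0.336 with the log2 ratio. Its column medians were 6.40 at 40 days and 6.09 to 6.10 at 80 days, so each age was taken as normalized on its own, and it was used only as an alternative.

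Control spots and spots marked as outliers were left out. A local background over 20 units above its spot was set to the array median, since on 3 arrays such backgrounds disturbed the background model. Signals were corrected with normexp (offset 50), ratios normalized by loess within arrays and by Aquantile between arrays, and log2 ratios of cord to reference taken (limma 3.58.1, R 4.3.3; figures with Python 3.11.15 and matplotlib 3.10.9). A probe was tested where it was well above background in Cy3 on 3 arrays of 1 group and measured on 2 of each.

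limma was fitted over all probes tested, on the 8 arrays of an age for genotype, and on all 16 for the interaction and for age. As in the study's methods, p under 0.05 (two-sided, unadjusted) was a call, with Benjamini-Hochberg values beside it. Single probes were also tested by two-sided exact permutation, over 70 ways for 4 arrays against 4 (smallest p 0.0286) or 4900 ways with genotype labels moved within each age. P-values set a group difference against the variation between these samples, and 4 arrays a group limit their precision.

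Probes named are those called between genotypes or in the interaction, the brightest probe of 8 chosen genes, and the 6 smallest p of each age comparison. The members, lists and rules were chosen with earlier results of these data known. On simulated data, 64%, 62%, 45%, 70% and 68% of 100 probes changed by 0.2 (log2) were called in the comparisons at 40 days, at 80 days, in the interaction and with age in wild-type and SOD1G93A. Of the 187 probes 135 were matched to RefSeq by accession and 52 by symbol. The alternatives were other background corrections, signals, normalizations, filters and samples in the fit, the replicate number as a block, and each array left out. The values of 1 partner gene and the sequence of 1 probe are not reported here.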

Additional observations from a re-analysis of the deposited data

Results flagged for a closer look

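Of 188 groups of 4 arrays looked at (47 probes), 4 held an array that stood apart from the other 3 by more than Dixon's critical value for the gap over the range, and chance alone gives about 1 group in 20. All 4 were SOD1G93A groups of 40 days. For *Chmp1b*, replicate 4 was the highest at -0.23 against a nearest value of -0.27 (gap over range 0.957). For *Cltc* (A_51_P311525), replicate 4 was the highest at 0.71 against 0.66 (0.845). For *Snx15*, replicate 1 was the lowest at 0.87 against 1.02 (0.899). For *Snx27* (A_52_P672296), replicate 3 was the lowest at 1.97 against 2.04 (0.877).

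The difference between genotypes differed between the ages, by the interaction of genotype with age at an unadjusted p under 0.05 in limma, for 21 probes, and for none at an adjusted p under 0.05. Upward shifts from 40 to 80 days were 0.50 for *Vps39*, 0.36 for *Vps4b*, 0.30 for *Ap2a1*, 0.28 for *Cltb*, 0.26 for *Snx5*, 0.26 for *Snx15*, 0.25 for *Snx2*, 0.24 for *Ap1s1*, 0.20 for *Snx19*, 0.19 for *Snx12*, 0.18 for *Snx27* (A_52_P19329) and 0.17 for *Chmp7*. Downward shifts were -0.53 for *Snx27* (A_52_P240152), -0.45 for *Dnm3*, -0.40 for *Vps36*, -0.38 for *Vps13c*, -0.32 for *Ap3d1*, -0.32 for *Epn1*, -0.28 for *Ap3m2*, -0.24 for *Ap1s2* and -0.19 for *Ap3m1*. Their errors and p-values are given with each gene in the report.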

How the results depend on the processing

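The 10 calls at 40 days became 0 with backgrounds as scanned, 6 with mean spot signals, 27 with Feature Extraction processed signals, 1 with median centring, 4 with the Cy3 channel alone and 4 with the authors' value table, which holds the Cy3 channel. The 17 at 80 days became 11 with Cy3 alone, and 26 both with all 16 arrays in the estimate of spread and with array weights. The 21 of the interaction became 4 with backgrounds as scanned and 13 with Cy3 alone. The 23 of age in wild-type became 15 with Cy3 alone, with the 8 arrays of that genotype, with array weights, and with the 3 arrays of bright backgrounds left out, an alternative chosen after seeing the data. The 41 of age in SOD1G93A became 24 with backgrounds as scanned. The authors' table gave no age comparison, being normalized separately by age. Over all probes, backgrounds as scanned gave 1.15% at 40 days, 3.63% in the interaction and 11.4% with age in SOD1G93A. The main fits gave 4.47%, 6.68% and 16.9%. For the other alternatives apart from the replicate block, and for single arrays left out, no share of all probes is given here. Their counts are therefore not read as particular to the members. The causes of these differences were not tested.

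Without single arrays the counts ran from 4 to 13 at 40 days (4 without SOD1G93A replicate 2 and 6 without wild-type replicate 3), 7 to 17 at 80 days (8 without wild-type replicate 2, 8 without wild-type replicate 4, 11 without SOD1G93A replicate 2 and 7 without SOD1G93A replicate 3), 13 to 21 in the interaction (13 without SOD1G93A of 40 days replicate 3), 14 to 28 for age in wild-type (14 without wild-type of 40 days replicate 3) and 26 to 43 for age in SOD1G93A (26 without SOD1G93A of 80 days replicate 3). With the replicate number, which is also the slide, as a block the counts were 9, 16, 15, 19 and 39. Of all probes tested, the block gave 959 of 21338 at 40 days and 1689 of 21603 at 80 days. In the interaction and with age in wild-type and SOD1G93A it gave 1504, 3419 and 3666 of 21953. Same-numbered arrays did not deviate together throughout (0, 2, 0 and 2 of 4 pairs over a correlation of 0.1), so the pairing is not established.

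Of the called probes named, *Snx27* A_52_P19329 in the interaction changed sign, to -0.23 with processed signals and -0.017 with median centring. All other sign changes were of uncalled values. At 40 days they were, with processed signals, 0.050 for *Clta*, 0.13 for *Snx27* A_52_P672296, 0.022 for *Chmp2b*, 0.029 for *Cltb* and 0.051 for *Vps54* A_51_P488308. *Dnm1* gave -0.010 with Cy3 alone and -0.019 with the authors' table, and *Snx27* A_52_P672296 gave 0.015 with mean signals and 0.0093 with the authors' table. At 80 days *Vps35* A_51_P503368 gave 0.041 with median centring, and *Dnm1* -0.0024 with backgrounds as scanned and -0.027 with processed signals. *Snx27* A_52_P672296 gave 0.018 without background subtraction, 0.0033 with processed signals, 0.052 with median centring and 0.012 without the 3 arrays, where *Chmp2b* gave -0.0054.

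Leaving out single arrays also gave both signs for 6 of these values. *Clta* A_51_P197321 at 40 days ran from -0.051 to 0.010, *Snx27* A_52_P672296 at 40 days ran from -0.068 to 0.0023, *Vps54* A_51_P488308 at 40 days ran from -0.072 to 0.048, *Vps35* A_51_P503368 at 80 days ran from -0.088 to 0.037, *Snx27* A_52_P672296 at 80 days ran from -0.046 to 0.057 and *Chmp2b* A_51_P220896 at 80 days ran from -0.021 to 0.14. Some uncalled values also became calls (p under 0.05 in limma) with their sign unchanged. The brightest probes of the 8 chosen genes, clathrin among them, had 168 alternative values at each age. Such calls were 1 of 168 at 40 days and 14 of 168 at 80 days, and their probes are not named here.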
